A study of Homo sapiens with 4 samples.

Results

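Mitochondrial ribosomal proteins were taken as the protein-coding genes whose GENCODE 29 symbol starts with MRPL, for the large subunit, or MRPS, for the small subunit. The rule gave 78 genes of the 58735 in the deposited tables, 49 MRPL and 29 MRPS, on 21 chromosomes. RNA had been sequenced from HT8 cells, which the labels give as a human cell line from colon cancer. Of the 4 libraries, 2 were labelled control and came from HT8 itself, and 2 were labelled PPDPF knockdown and came from cells named HT8-cas1. The labels do not state a treatment, a time point, how the knockdown was made, how many clones it rests on, or whether replicate libraries stem from separate cultures. The p-values therefore cover only the scatter among these libraries, which may be technical.

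Mitochondria keep a ribosome of their own, which makes the few membrane proteins of the respiratory chain and ATP synthase that the mitochondrial genome encodes. Its RNAs come from that genome, whereas every one of its proteins is encoded in the nucleus, made in the cytosol and imported, so the members described here must be matched to each other and to an RNA made in another compartment. Some members descend from bacterial ribosomal proteins, and others have no bacterial counterpart and are called mitochondria specific. Colon epithelial cells, like other cells that respire, use this ribosome continuously.

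The libraries held 17069628 to 19479906 reads in genes, and the values are FPKM, which divide the fragments of a gene by its length and by the depth of the library. Markers of colon epithelium reached 1 FPKM for 9 of 10 genes in both control libraries and for 10 of 10 in both others, with KRT20 the exception, and their summed level was 2624 to 2807 FPKM in the controls and 3141 to 3167 in the others. The sum is carried by KRT8, KRT18 and KRT19, which lay above both controls in the others. So did EPCAM, KRT20, VIL1, CDX1 and LGALS4 (42.6 and 46.8 FPKM against 70.3 and 68.05). CDH1 (119 and 121 FPKM against 107 and 111) and CDX2 (42.4 and 49.2 against 41.8 and 39.2) lay below both controls. The part of this difference in the results below was not tested. None of 6 fibroblast or 3 endothelial markers reached 1 FPKM in any library (sums of at most 0.723 and 0.185). Of 6 blood markers only CD14 did so, in the controls (sums of 1.16 to 2.22 over all libraries), while PTPRC and CD3E were at 0. PPDPF, the targeted gene on chromosome 20, stood at 237 and 266 FPKM in control and at 281 and 283 FPKM in those labelled knockdown, a 1.12-fold difference (log2 0.16 ± 0.06 SE, limma adjusted p = 0.0940). It was called higher by voom with either scaling (adjusted p = 0.0105 and 0.00433) and by limma without the second control library (0.0233). The targeted gene was therefore not lower where the labels say it was knocked down, the cells are called the libraries labelled knockdown throughout, and every direction below is theirs over control.

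Genes were tested with limma on log2(FPKM + 1) where their mean over the 4 libraries was at least 1 FPKM, and a gene was called at a Benjamini-Hochberg adjusted p under 0.05 over all 12777 genes tested. Fold changes are those of FPKM + 1, so the change of a low gene is understated. Of the 78 members, 76 passed the filter (48 MRPL and 28 MRPS), and MRPL38 and MRPS24 did not. The members are well expressed genes: their median level was 19.97 FPKM, higher than 79.9% of the genes tested, and 71 of the tested members had 5 FPKM or more. A tested member had between 42 and 3010 reads in a library.

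Most mitochondrial ribosomal protein genes did not pass the test. In the libraries labelled knockdown 11 members rose, 5 fell and 60 were not called. The called share was 21.1% of the members tested, against 29.9% of all genes tested, with 14.5% against 16.8% for rises and 6.58% against 13% for falls. The members' median log2 fold change was 0.0071, beside 0.0011 over all genes tested, and only MRPL23 moved by 0.5 or more on the log2 scale. The split into rises and falls depended on the scaling: it was 8 and 8 after quantile normalization, and 8 and 10 when recovered reads were scaled to the library total. Leaving out any 1 of the 4 libraries left 3 to 5 rises and 3 to 4 falls, lowest for rises (3) without the second library labelled knockdown. In those 4 fits 9.21% to 10.5% of members were called, beside 15.4% to 16.96% of all genes tested. With no filter on low values, which took in 28965 genes, the order of the shares turned round, with 11.5% of members called beside 6.45% of all genes. With a filter of 5 FPKM 29.6% of members were called beside 44.2% of all genes, and with protein-coding genes only 28.9% beside 42.2%. Voom gave 23.7% beside 40.8% when scaled to the library total, and 21.1% beside 40.6% with trimmed mean scaling.

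Among the 48 tested MRPL genes of the large subunit 5 rose (10.4%) and 2 fell (4.17%), with a median log2 fold change of −0.0096 and a range from −0.62 to 0.29. Among the 28 tested MRPS genes of the small subunit 6 rose (21.4%) and 3 fell (10.7%), with a median of 0.066 and a range from −0.36 to 0.37. The called share was 14.6% in the large and 32.1% in the small subunit, on either side of the 29.9% of all genes, and whether the subunits differ was not tested. Without the first library labelled knockdown no large subunit member fell, and without the second none rose (limma). At an unadjusted p under 0.05 these fits held 4 falls and 5 rises.

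The libraries labelled knockdown lay above both controls for 29 members (38.2%, beside 35.9% of all genes tested) and below both for 18 (23.7%, beside 33.8%), and the groups of 69.7% of all genes tested did not overlap. By subunit they lay above for 15 MRPL and 14 MRPS genes and below for 11 and 7. Of the 60 members without a call, 29 had a fold change above 0 and 31 below 0. For 48 of those 60 (80%) the 95% interval of the difference lay within 1.25-fold in either direction, compared with 57.6% of all genes without a call, so differences beyond that size were outside the interval for most of them.

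**Figure D1:**
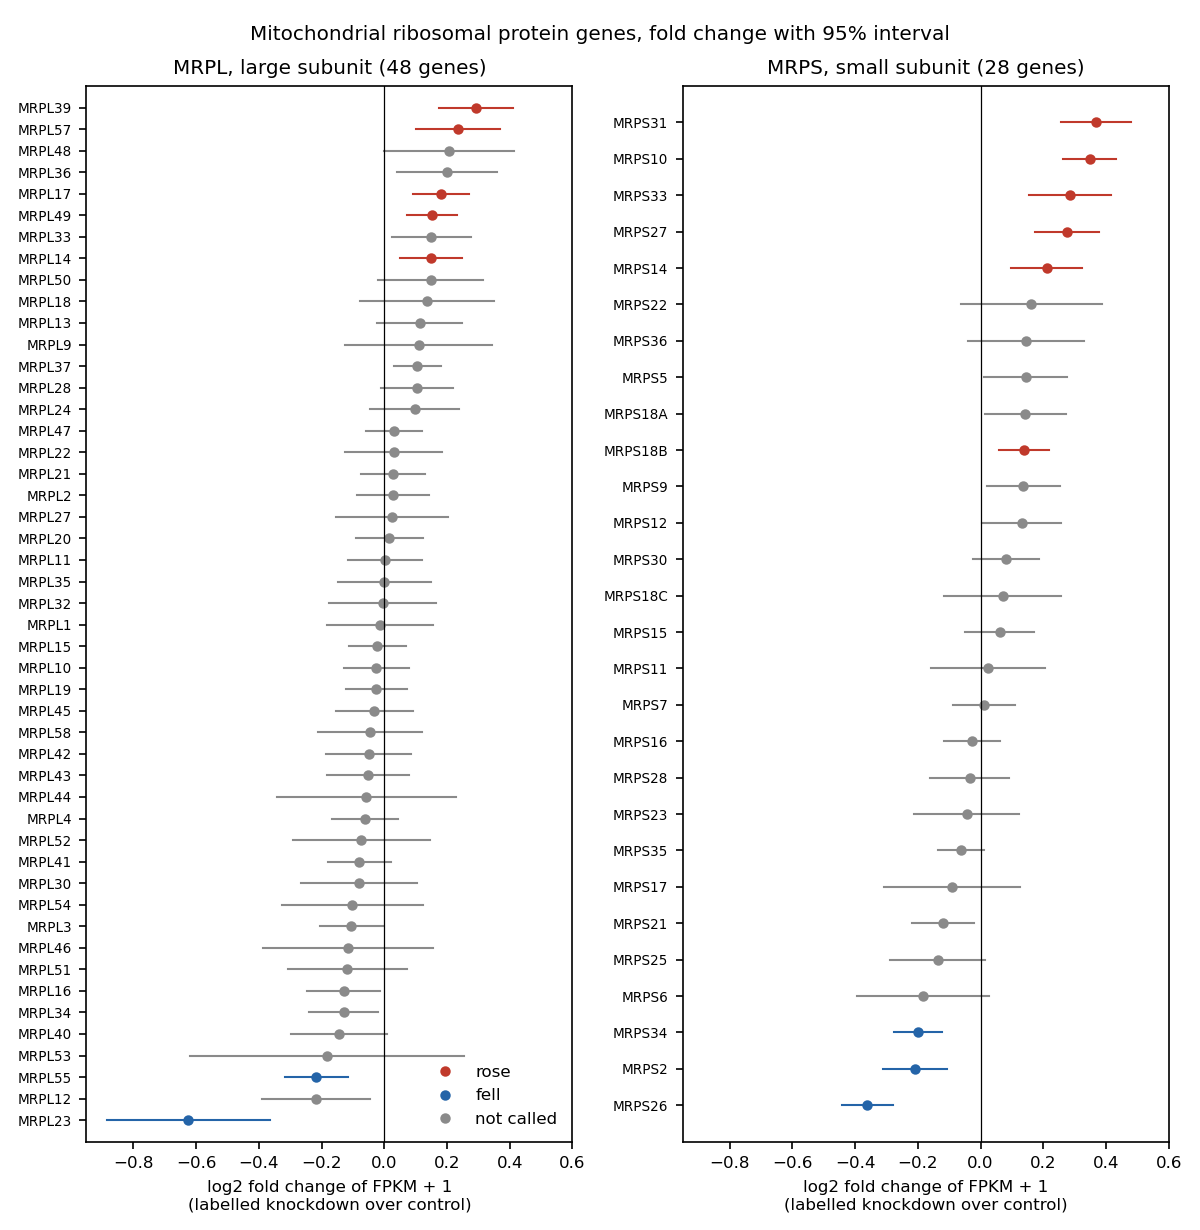
Log2 fold change of FPKM + 1 (x axis, libraries labelled knockdown over control) for each tested MRPL gene (left) and MRPS gene (right), with bars for the 95% interval from the limma fit and colours for the call. Most points lie close to 0, with MRPL23 at −0.62 the lowest and MRPS31 at 0.37 the highest.

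Summed over its members, neither subunit separated the groups. The MRPL genes together had 1278 and 1244 FPKM in control and 1249 and 1289 in the libraries labelled knockdown. The MRPS genes together had 669 and 674 FPKM in the controls and 660 and 670 in the others. The ratio of the summed MRPL to the summed MRPS level was 1.91 and 1.85 in the controls and 1.89 and 1.93 in the others. In each of these 3 measures the groups overlapped. The median deviation of the MRPS genes from their own means, on the log2 scale, was −0.039 and −0.014 in the controls and 0.0063 and 0.043 in the others, so here both libraries labelled knockdown lay above both controls. For the MRPL genes the same measure overlapped, at 0.012 and −0.0095 against −0.0057 and 0.018. In bulk RNA fewer cells of a type and less RNA per cell cannot be told apart.

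The highest small subunit gene, MRPS34, fell, whereas MRPL41, the highest of the large subunit, was not called. MRPS34, a mitochondria-specific protein that helps keep the small ribosomal RNA stable, had 109.9 and 108 FPKM in control cells and 95.8 and 93.9 in the others (0.871-fold, log2 −0.20 ± 0.03 SE, limma adjusted p = 0.00941). Its groups did not overlap, and without the second library labelled knockdown the adjusted p was 0.0531. MRPL41, also mitochondria specific, stood at 92.1 and 88.1 FPKM in the controls and 83.3 and 87.2 in the others (log2 −0.08, adjusted p = 0.192). MRPS35, a protein of the small subunit head, had 76.2 and 77.4 FPKM against 73.2 and 73.8 (log2 −0.06, adjusted p = 0.168). MRPL37 was the third highest large subunit gene, with 54.7 and 55.0 FPKM against 59.3 and 58.8 (log2 0.11, adjusted p = 0.0516). The highest genes thus lay on both sides of 0, and MRPL14 and MRPS26, which complete the top 3 of each subunit, rose and fell respectively.

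The small subunit head, the lobe that grips the messenger and the anticodon ends of transfer RNAs, held 4 of the 6 small subunit genes that rose. Of its 8 listed genes 7 were tested, and MRPS10, MRPS14, MRPS31 and MRPS33 rose while none fell (median log2 fold change 0.21, beside 0.0011 over all genes). The called share was 57.1% of the 7, beside 29.9% of all genes tested, of which 16.8% rose and 13% fell. Of the 30 neighbouring genes of each, 13 rose and 2 fell for MRPS31, and 15 rose and 2 fell for MRPS33. For MRPS10 it was 3 and 2, and for MRPS14 7 and 5. For the 0 falls, limma gave none at an unadjusted p under 0.05 either, and voom with either scaling gave none. MRPS35, MRPS7 and MRPS9 were not called, at log2 −0.06, 0.01 and 0.14.

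MRPS31, a mitochondria-specific head protein at chromosome 13 (40729135 to 40771173, GRCh38, minus strand), had 9.53 and 9.65 FPKM in the controls and 12.9 and 12.5 in the libraries labelled knockdown. It rose 1.29-fold (log2 0.37 ± 0.04 SE, limma adjusted p = 0.00491), the largest rise among the members. MRPS10, the counterpart of the bacterial head protein S10, lies on chromosome 6 (42206801 to 42217865, minus strand) and stood at 24.7 and 24.8 FPKM against 31.5 and 32.0. It rose 1.27-fold (log2 0.35 ± 0.03 SE, adjusted p = 0.00302). Both genes kept their call in each of the 13 other fits run. In both genes the 2 libraries of a group lay far closer to each other than to the other group.

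MRPS33, a mitochondria-specific head protein on chromosome 7 (141002610 to 141015228, minus strand), had 8.23 and 7.72 FPKM in the controls and 9.87 and 10.02 in the others. It rose 1.22-fold (log2 0.29 ± 0.05 SE, adjusted p = 0.0154). MRPS14, the counterpart of bacterial S14, is on chromosome 1 (175010789 to 175023425, minus strand) and had 9.97 and 9.71 FPKM against 11.4 and 11.7, a rise of 1.16-fold (log2 0.21 ± 0.04 SE, adjusted p = 0.0246). Neither gene's groups overlapped. The call of MRPS33 was lost without the second control library, the first or the second library labelled knockdown (adjusted p = 0.0677, 0.0636 and 0.0705), and that of MRPS14 whichever library was left out (0.0743 to 0.106).

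Outside the head, MRPS27 and MRPS18B rose. MRPS27, a mitochondria-specific protein with pentatricopeptide repeats, a fold that binds RNA, lies on chromosome 5 (72219409 to 72320646, minus strand). It had 14.1 and 14.6 FPKM in the controls and 17.5 and 17.7 in the others, a rise of 1.21-fold (log2 0.28 ± 0.04 SE, adjusted p = 0.0086), and it kept its call in all 13 other fits. MRPS18B is described with its paralogs below.

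The 3 small subunit genes that fell were MRPS26, MRPS34 and MRPS2. MRPS26, a mitochondria-specific protein on chromosome 20 (3045945 to 3048254, plus strand), had 62.8 and 64.5 FPKM in the controls and 49.0 and 49.6 in the libraries labelled knockdown. It fell to 0.778-fold (log2 −0.36 ± 0.03 SE, adjusted p = 0.00252), the smallest p of all members, and was called in all 13 other fits. MRPS2, the counterpart of bacterial S2, lies on chromosome 9 (135499984 to 135504673, plus strand) and stood at 35.3 and 36.4 FPKM against 31.6 and 30.2, or 0.865-fold (log2 −0.21 ± 0.04 SE, adjusted p = 0.0182). Its call was lost without the first or second control library or the second library labelled knockdown (adjusted p = 0.0569, 0.0809 and 0.0811). Among the 9 mitochondria-specific small subunit genes 3 rose and 2 fell (55.6% called, median −0.044). Among the 16 tested with a bacterial counterpart 3 rose and 1 fell (25% called, median 0.042). Of all genes tested 29.9% were called, with 16.8% rises and 13% falls.

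The promoters of the largest rises, MRPS31 and MRPS10, and of the largest small subunit fall, MRPS26, are printed to show the sequence in front of genes of 1 subunit that moved in opposite directions. Letters run 5′ to 3′ on the gene's strand and come from RefSeq on GRCh38.p14. Each stretch ends before the first transcribed base in both RefSeq and GENCODE, and capitals mark the ETS motif CCGGAAG, the core that ETS family factors such as GABPA recognise.
MRPS31 (chr13:40771191-40771440, minus strand): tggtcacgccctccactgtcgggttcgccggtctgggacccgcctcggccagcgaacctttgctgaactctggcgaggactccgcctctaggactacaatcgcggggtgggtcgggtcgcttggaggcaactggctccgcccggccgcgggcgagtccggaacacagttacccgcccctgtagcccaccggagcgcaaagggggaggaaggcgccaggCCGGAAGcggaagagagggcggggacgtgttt
MRPS10 (chr6:42217866-42218111, minus strand): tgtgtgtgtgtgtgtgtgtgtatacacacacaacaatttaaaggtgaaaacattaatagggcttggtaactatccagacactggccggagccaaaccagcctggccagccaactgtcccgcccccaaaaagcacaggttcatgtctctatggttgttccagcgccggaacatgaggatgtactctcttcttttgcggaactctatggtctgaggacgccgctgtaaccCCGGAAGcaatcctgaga
MRPS26 (chr20:3045802-3045944, plus strand): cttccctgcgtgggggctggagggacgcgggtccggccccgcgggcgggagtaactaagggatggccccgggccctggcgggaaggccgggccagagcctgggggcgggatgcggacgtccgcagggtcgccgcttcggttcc
The MRPS31 and MRPS10 stretches each hold 1 ETS motif close to their 3′ end, on the gene's own strand, and the MRPS26 stretch holds none. The full 300-base MRPS26 window does hold a match, within the GENCODE transcript.

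Over the 69 members that matched the promoter table (250 bases before to 50 after the start, both strands searched), the ETS letters CCGGAAG occurred in 29 (42.0%), compared with 20.8% of 8560 other tested protein-coding genes and 10.3% of all 35116 promoters. The YY1 letters GATGGCGGC occurred in 10 (14.5%, beside 3.33% and 1.40%), and the NRF1 letters GCGCATGC in 6 (8.70%, beside 5.84% and 3.05%). The general promoter element CCAAT stood in 20 (28.99%, beside 37.1% and 34.6%), and the E-box CACGTG that MYC binds in 6 (8.70%, beside 10.6% and 7.26%). These letter matches are a description and not binding sites. The ETS letters were in 3 of 11 members that rose, 2 of 4 that fell and 23 of 52 that were not called. MRPS10 and MRPS18B were the members that rose with the YY1 letters, and MRPL17 and MRPS18B those with the NRF1 letters.

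Of the large subunit, MRPL39, MRPL57, MRPL17, MRPL49 and MRPL14 rose, each by less than the largest rises of the small subunit. MRPL39, a mitochondria-specific protein related to threonyl-tRNA synthetases, lies on chromosome 21 (25585656 to 25607517, minus strand). It had 26.1 and 24.3 FPKM in the controls and 30.8 and 31.4 in the others, a rise of 1.23-fold (log2 0.29 ± 0.05 SE, adjusted p = 0.0110). MRPL57, a short mitochondria-specific protein, is encoded on chromosome 13 (21176645 to 21179084, plus strand) and stood at 38.9 and 37.4 FPKM against 43.2 and 47.1, a rise of 1.18-fold (log2 0.24 ± 0.05 SE, adjusted p = 0.0277). In both genes the groups were apart. MRPL39 lost its call without the second library labelled knockdown (adjusted p = 0.0563), and MRPL57 without the first or second control library or the second library labelled knockdown (0.0745, 0.109 and 0.0882).

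MRPL17, at the mouth of the tunnel through which the new protein leaves, lies on chromosome 11 (6680782 to 6683401, minus strand) and had 29.8 and 29.7 FPKM against 33.3 and 34.4. It rose 1.13-fold (log2 0.18 ± 0.03 SE, adjusted p = 0.0193). MRPL49, mitochondria specific and also on chromosome 11 (65122183 to 65127371, plus strand), had 37.2 and 37.0 FPKM against 41.0 and 41.6, or 1.11-fold (log2 0.15 ± 0.03 SE, adjusted p = 0.0234). MRPL14, which faces the small subunit, is on chromosome 6 (44113454 to 44127457, minus strand) and had 59.4 and 60.5 FPKM against 68.4 and 64.8, again 1.11-fold (log2 0.15 ± 0.04 SE, adjusted p = 0.0417). These were small differences between groups that did not overlap. Each of the 3 calls was lost whichever library was left out, with adjusted p-values of 0.0596 to 0.0922 for MRPL17, 0.0841 to 0.105 for MRPL49 and 0.0576 to 0.156 for MRPL14. In MRPL49, 17.6% of the coding bases overlap FAU on the other strand, and reads of the pair cannot be told apart if the counting ignored strand.

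MRPL23 and MRPL55 were the large subunit genes that fell. MRPL23, a tunnel exit protein on chromosome 11 (1947278 to 1984522, plus strand), had 12.3 and 15.03 FPKM in the controls and 8.08 and 8.88 in the libraries labelled knockdown. It fell to 0.649-fold (log2 −0.62 ± 0.10 SE, adjusted p = 0.0120), the largest change of any member. Its reads numbered 644 and 879 against 415 and 448, and without the first library labelled knockdown the adjusted p was 0.0573. MRPL55, of the central protuberance on top of the large subunit, lies on chromosome 1 (228106679 to 228109312, minus strand) and had 19.4 and 19.4 FPKM against 16.3 and 16.9, or 0.861-fold (log2 −0.22 ± 0.04 SE, adjusted p = 0.0160). Its adjusted p was 0.0729 without the first control library, 0.0693 without the second and 0.0787 without the first library labelled knockdown.

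**Figure D2:**
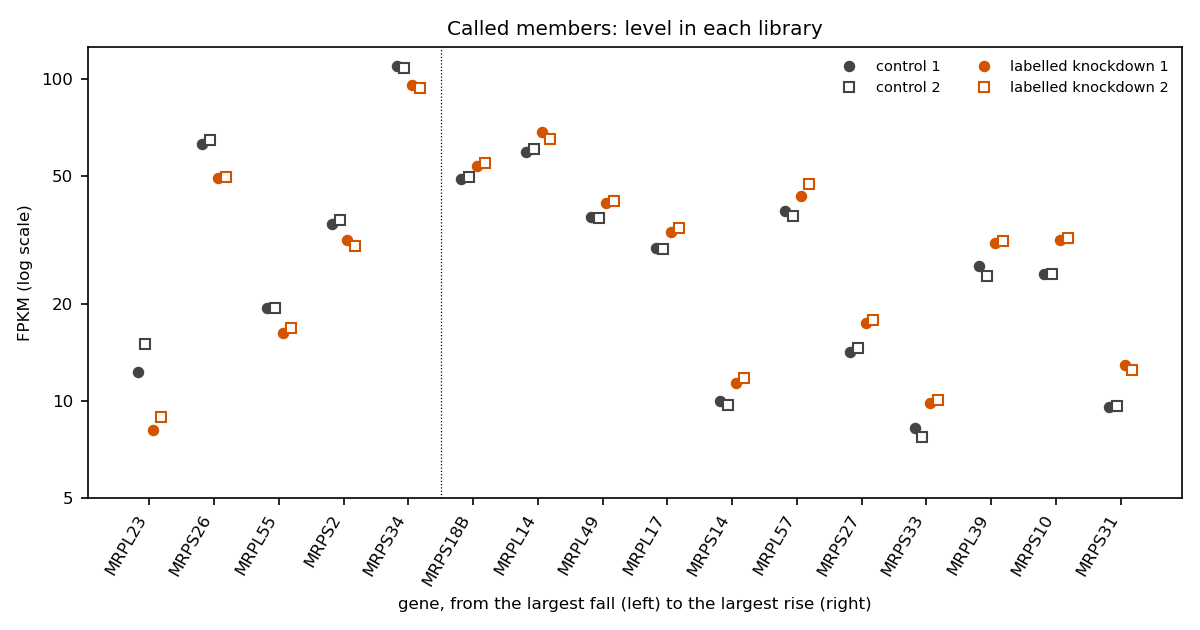
FPKM on a log axis (y) in each of the 4 libraries for the 16 called members, ordered along the x axis from the largest fall (MRPL23) to the largest rise (MRPS31), with control and labelled knockdown libraries as separate symbols. In every one of these genes the 2 libraries of a group lie on the same side of the other group.

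By place in the large subunit, the tunnel exit held 1 rise and 1 fall among 6 genes, MRPL17 and MRPL23 (33.3% called, median log2 fold change 0.031). The shares over all genes tested were 29.9% called, 16.8% rises and 13% falls. The central protuberance held 1 fall, MRPL55, and no rise among 7 tested genes (14.3% called, median −0.046). For the 0 rises limma gave none at an unadjusted p under 0.05, while voom gave 1 or 2 at that level and none after adjustment. MRPL58, a peptidyl-tRNA hydrolase that was built into this protuberance, had 41.6 and 39.4 FPKM against 37.0 and 41.5 and was not called. Among the 30 large subunit genes with a bacterial counterpart 2 rose and 2 fell (13.3% called, median 0.0092). Among the 18 tested mitochondria-specific ones 3 rose and none fell (16.7% called, median −0.051). For the 0 falls limma gave none at an unadjusted p under 0.05, and voom gave 3 or 1 at that level and none after adjustment.

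The stalk, the flexible arm that recruits translation factors, showed no call among its 5 genes (limma over all 12777 genes), with 1 fall, MRPL12, at an unadjusted p under 0.05 in limma and in voom, and with a median log2 fold change of −0.10. MRPL12, the protein that binds the factors, had 22.6 and 21.5 FPKM in the controls and 17.7 and 20.02 in the others (log2 −0.22, 95% interval −0.39 to −0.05, adjusted p = 0.0660), and it was called without the second library labelled knockdown (adjusted p = 0.0400), after quantile normalization (0.0437), with a filter of 5 FPKM (0.0307) and among protein-coding genes only (0.0207). MRPL10, which anchors MRPL12, had 18.7 and 19.3 FPKM against 18.9 and 18.4 (log2 −0.03). MRPL11, at the stalk base, had 20.7 and 19.4 FPKM against 19.9 and 20.4 (log2 0.0030). In both of these the groups overlapped. MRPL54 stood at 40.2 and 38.8 FPKM against 33.6 and 40.2 (log2 −0.10), and MRPL53 at 2.50 and 3.03 against 2.85 and 1.84 (log2 −0.18). Either value was set by 1 library: MRPL54 was at 0.03 without the first library labelled knockdown, and MRPL53 at 0.04 without the second.

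The 3 paralogs related to bacterial S18 take different places in the mitochondrial ribosome, and all had higher means in the libraries labelled knockdown. MRPS18B, on chromosome 6 (30617709 to 30626395, plus strand), had 48.8 and 49.5 FPKM in the controls against 53.7 and 54.6 and rose 1.10-fold (log2 0.14 ± 0.03 SE, adjusted p = 0.0298). Its call was lost whichever library was left out (adjusted p = 0.0843 to 0.128) and with voom scaled to the library total, under which none of the 3 paralogs was called. MRPS18A, which sits in the large subunit despite its symbol, had 27.0 and 28.2 FPKM against 29.4 and 31.7 (log2 0.14, adjusted p = 0.0929). MRPS18C had 3.18 and 3.50 FPKM against 3.56 and 3.55 (log2 0.07, adjusted p = 0.503). MRPS18A had about the fold of MRPS18B but libraries that lay farther apart within each group.

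Besides MRPS18A, MRPS30 sits in the large subunit, and MRPS36 belongs to the 2-oxoglutarate dehydrogenase complex of the citric acid cycle. MRPS30 had 11.9 and 12.1 FPKM against 12.9 and 12.6 (log2 0.08, adjusted p = 0.201), and MRPS36 had 11.9 and 13.3 against 13.4 and 14.7 (log2 0.14, adjusted p = 0.195). None of these 3 genes was called by limma over all 12777 genes, with 1 at an unadjusted p under 0.05, or by voom. MRPS18A was called when only protein-coding genes were tested (adjusted p = 0.0455). Moving them to where they sit and adding the structural proteins that carry another symbol gave 5 rises and 2 falls among 51 large subunit genes (median −0.0055) and 8 rises and 3 falls among 29 small subunit genes (median 0.061).

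The added rises were DAP3, a GTP-binding protein of the small subunit first named for its part in cell death, and CHCHD1, a twin-cysteine protein of the same subunit. CHCHD1 had 29.4 and 30.9 FPKM against 37.3 and 37.1 (1.23-fold, adjusted p = 0.0066) and kept its call whichever library was left out. DAP3 had 19.5 and 22.1 FPKM against 26.8 and 25.8 (1.253-fold, adjusted p = 0.0218) and lost it without the first control library or either library labelled knockdown (adjusted p = 0.0538, 0.0933 and 0.0653). PTCD3, AURKAIP1 and GADD45GIP1 were not called, at 1.09, 0.999 and 0.994-fold.

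Some members overlap other genes. In 8 members at least 50% of the coding bases also lie in an exon of another annotated gene: MRPL12 (96.0%), MRPL30 (95.3%), MRPL38 (94.1%), MRPL46 (64.0%), MRPL53 (100%), MRPS17 (100%), MRPS24 (92.2%) and MRPS28 (53.0%). The median level of these 8 was 3.41 FPKM, beside 20.7 in the other 70. None of the 6 that were tested was called by limma on all libraries at the 1 FPKM filter or by voom, with 1 fall, MRPL12, at an unadjusted p under 0.05. MRPL12 was called in the other fits named for the stalk. MRPL38 had 0.978 and 1.24 FPKM in the controls and 0.902 and 0.805 in the others, on 50 to 89 reads, and shares most of its coding bases with AC087289.3. MRPS24, which shares its own with the readthrough gene URGCP-MRPS24, had 8, 7, 3 and 0 reads. How the authors assigned reads in shared exons is not stated, so levels of these 8 genes are uncertain. Among the 50 members that share no coding base the lowest mean was 4.46 FPKM, for MRPL48. A further 75 annotated pseudogenes copy 34 of the members, and the highest of them, MRPL45P2, reached a mean of 2.34 FPKM. The copies of MRPS31, the member with the largest rise, had means of at most 0.815 FPKM (MRPS31P4), and how the authors treated reads that fit several copies is not stated.

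**Figure D3:**
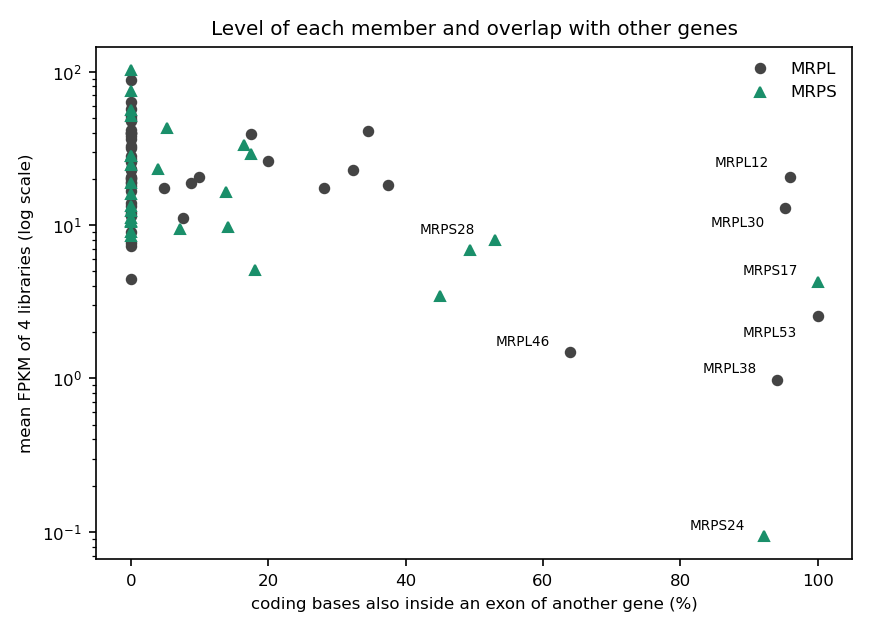
Mean FPKM of the 4 libraries on a log axis (y) for each of the 78 members against the percentage of its coding bases that lie in an exon of another gene (x), coloured by subunit. The 8 members at 50% or more include the 2 lowest, MRPS24 and MRPL38.

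The members' positions were set beside the genes around them, taking the 15 nearest tested genes on each side that are not members. Among the 16 called members, 5 had neighbours whose median log2 fold change was 0.19 or more in size, a limit chosen after the values were seen: MRPL23 (−0.43, with 8 of 30 neighbours that rose and 17 that fell), MRPL57 (0.34, 17 and 0), MRPS33 (0.21, 15 and 2), MRPL17 (0.19, 13 and 1) and MRPS31 (0.19, 13 and 2). Each of the 5 moved in the direction of its neighbours' median. For the other 11 called members that median was at most 0.080 in size, and for MRPS10 it was −0.038, with 3 neighbours that rose and 2 that fell. One member without a call, MRPL36 on chromosome 5, had such neighbours too (0.31, 18 and 0), and it stood at 19.99 and 18.2 FPKM against 21.2 and 23.0 (log2 0.20, adjusted p = 0.0686). The part of the neighbourhood in these 6 differences was not tested. Across the 76 tested members the correlation between a member's log2 fold change and its neighbours' median was 0.489, and 0.326 over 75 without MRPL23. The members share the same 4 libraries, so this is a description.

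**Figure D4:**
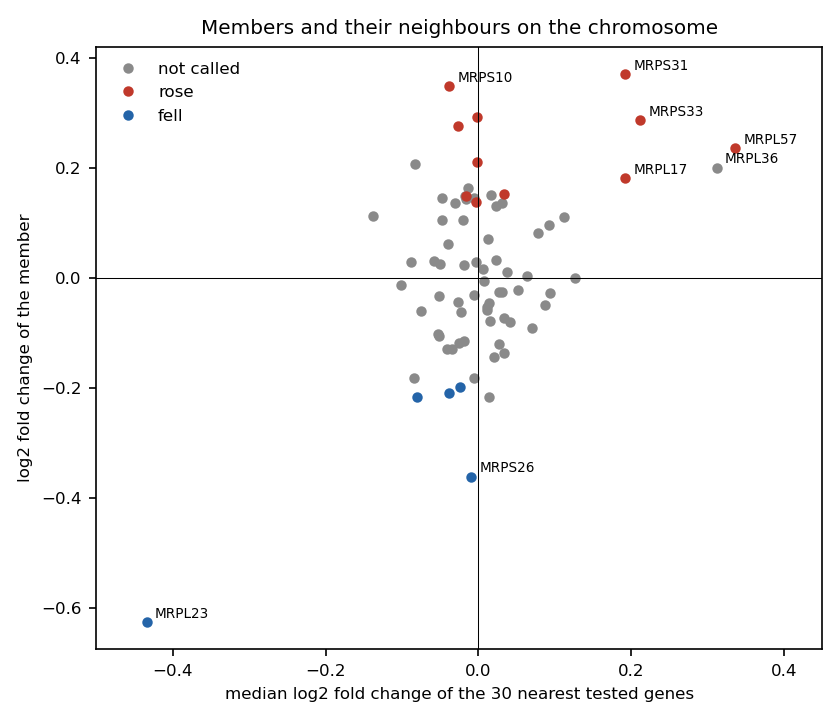
Log2 fold change of each tested member (y) against the median log2 fold change of the 30 nearest tested genes on its chromosome (x), with members that rose in red, those that fell in blue and the rest in grey. MRPL23 lies at the lower left and MRPL57 farthest to the right, while MRPS10 and MRPS26 lie far from 0 on the y axis with neighbours near 0.

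Many members share a start region with another gene read in the opposite direction. Of the 76 tested members, 17 (22.4%) had a protein-coding gene starting head to head within 1000 bases, compared with 1092 of 10687 other tested protein-coding genes (10.2%). In 13 pairs both genes were tested. Both were called in 1 pair, MRPS34 and EME2, a DNA repair nuclease subunit that starts 52 bases away and also fell (log2 −0.27, adjusted p = 0.0479). MRPL57 rose beside SKA3, a spindle protein 43 bases away that was not called (log2 0.18). NDUFS6 and NDUFB5, subunits of respiratory complex I, rose (log2 0.21, limma adjusted p = 0.0173, and log2 0.25, adjusted p = 0.0131). Their partners MRPL36 (log2 0.20, adjusted p = 0.0686) and MRPL47 (log2 0.03) were not called. MRPL36 thus had about the fold of NDUFS6. It was called with a filter of 5 FPKM and among protein-coding genes only. MRPL46 and MRPS11, of opposite subunits, start 34 bases apart, and neither was called.

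Both ribosomal RNAs that the members are built around were lower in the libraries labelled knockdown. MT-RNR2, the RNA of the large subunit, had 1226 and 1308 FPKM in the controls and 871 and 909 in the others, 0.703-fold (log2 −0.51 ± 0.04 SE, adjusted p = 0.0024). MT-RNR1, the RNA of the small subunit, had 275 and 316 FPKM against 241 and 246, 0.827-fold (log2 −0.27, adjusted p = 0.0376), and lost its call without the first or second library labelled knockdown (adjusted p = 0.129 and 0.108). The labels do not state whether or how ribosomal RNA was removed. MT-RNR2 kept its call whichever library was left out. Reads from the mitochondrial genome made up 2.87% and 2.76% of the controls and 2.35% and 2.19% of the others. The summed levels of the protein genes of either subunit, given above, overlapped between the groups.

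Of the 10 mitochondrial translation factors, MTIF3, MTRF1 and GFM2 rose and none fell (median log2 fold change 0.095). The called share was 30%, about that of all genes tested (29.9%). For the 0 falls limma gave 2 at an unadjusted p under 0.05, MRRF and TSFM, and voom called 1 or 2. MTIF3, an initiation factor that keeps the subunits apart, had 14.1 and 12.7 FPKM against 20.1 and 20.2 (1.47-fold, adjusted p = 0.0037). It lies on chromosome 13 among neighbours with a median of 0.39. The release factor MTRF1, also on chromosome 13 (neighbours 0.22), rose 1.35-fold (adjusted p = 0.0383), and GFM2, which takes the ribosome apart after release, rose 1.19-fold (adjusted p = 0.0135). Both lost their call in 3 of the 4 fits that left out a library, as far as an adjusted p of 0.142 and 0.0664.

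Among 31 genes for assembly of the mitochondrial ribosome and modification of its RNA, 2 rose and 7 fell (29.03% called, beside 29.9% of all genes tested; median −0.035). Leaving out any 1 library left 1 rise and 2 falls, and voom with either scaling gave 4 rises and 10 falls. RCC1L, an assembly factor, rose 1.46-fold (14.5 and 13.7 FPKM against 21.2 and 21.0, adjusted p = 0.0020). LRPPRC, which with SLIRP protects mitochondrial messengers, fell to 0.739-fold (42.8 and 43.2 against 30.9 and 32.1, adjusted p = 0.0020). The helicase DDX28 fell to 0.844-fold (adjusted p = 0.0141) and the methyltransferase MRM1 to 0.811-fold (adjusted p = 0.0202). RCC1L and LRPPRC kept their calls whichever library was left out, and the other calls in those fits were SLIRP, MRM1, MRM2 or C1QBP, 1 in each. DDX28 lost it each time (adjusted p = 0.0533 to 0.0737) and MRM1 in 3 of 4 fits (up to 0.0933).

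Of 4 tested genes for mitochondrial transcription, TFB2M and TFAM fell (0.793-fold, adjusted p = 0.0161, and 0.847-fold, adjusted p = 0.0207). The called share was 50%, beside 29.9% of all genes tested. None rose, with 0 rises at an unadjusted p under 0.05 in limma and voom. The neighbours of TFB2M had a median log2 fold change of −0.33, beside −0.33 for the gene itself. TFB2M lost its call without either control library (adjusted p = 0.0565 and 0.0737) and TFAM without any 1 library (0.0504 to 0.0969). Of 8 tested regulators of nuclear genes for mitochondria, MYC fell to 0.787-fold (adjusted p = 0.0037) and ESRRA rose 1.14-fold (adjusted p = 0.0155). The called share was 25%, beside 29.9% of all genes tested. ESRRA lost its call whichever library was left out, at log2 0.17 to 0.20. GABPA, NRF1 and YY1, whose motifs were searched above, were not called.

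Set beside the cytosolic ribosome and the respiratory chain, mitochondrial ribosomal protein genes lay between the other lists in the share called. Of 77 tested cytosolic ribosomal protein genes 8 rose and 14 fell (28.6% called, median −0.012), and of 79 tested nuclear genes of the respiratory chain and ATP synthase 14 rose and 1 fell (19.0%, median 0.047). The mitochondrial ribosomal protein genes had 11 rises and 5 falls of 76 (21.1%), and no difference between the lists was tested. The share over all genes tested was 29.9%, with 16.8% rises and 13% falls. Respiratory chain genes had 17.7% rises and 1.27% falls, and cytosolic ribosomal protein genes 10.4% and 18.2%. By size, the median change of the members without regard to sign was 0.11 on the log2 scale, compared with 0.15 over all genes tested. Among called genes it was 0.23 for members and 0.34 for all. The members' median level was higher than 79.9% of the genes tested, and genes of like level were not compared.

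**Figure D5:**
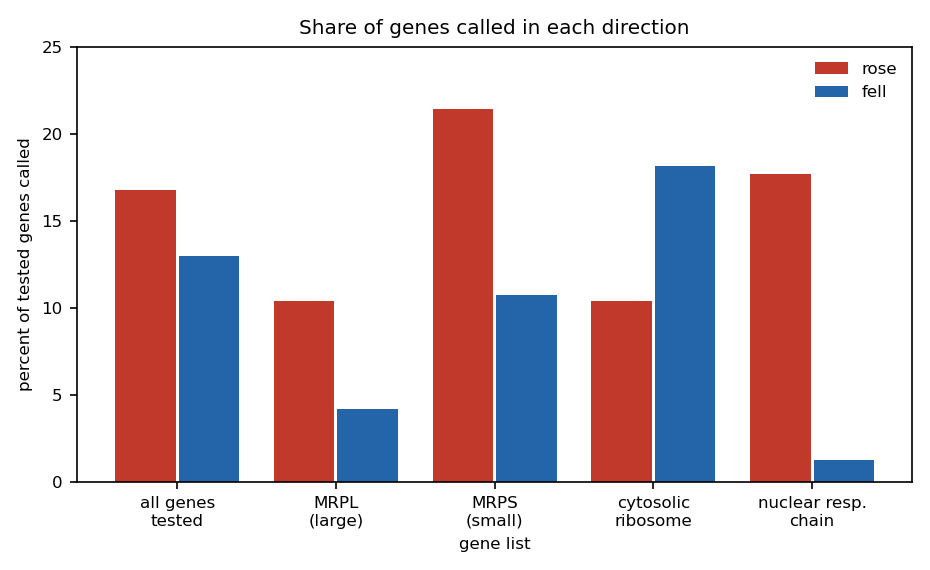
Percentage of tested genes that rose and that fell (y, bars starting at 0) for the large and small subunit genes of the mitochondrial ribosome, the comparison lists and all genes tested (x). Large subunit genes show 10.4% rises and 4.17% falls, small subunit genes 21.4% and 10.7%, and all genes 16.8% and 13%.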

How the data were processed

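Gene expression was measured by RNA-seq in 4 libraries of HT8 cells, 2 per group. The authors deposited FPKM per gene, with HISAT2 2.0.5 and the build hg18 named in the submitters' processing notes. The counter and its strand setting are not stated there. All 58735 gene IDs matched GENCODE 29, whose GRCh38 coordinates are printed. FPKM times union exon length gave whole reads for 100% of values above 0 (within 0.01 of a read), so depth was read from the files as 17069628 to 19479906 reads in genes.

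log2(FPKM + 1) of genes with a mean of at least 1 FPKM was fitted with limma 3.58.1 (R 4.3.3, trend, 2 residual degrees of freedom), two-sided, with Benjamini-Hochberg adjustment over all 12777 genes and calls at 0.05. Tables and figures were made with Python 3.11.15, pandas 2.3.3, numpy 2.4.6 and matplotlib 3.10.9. The fit was also run on simulated reads with a fixed spread and few changed genes. These data differ from that setting, so the run gives no support to the calls. Library numbers do not pair the groups by any label.

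The alternatives were quantile normalization, other filters (none, 5 FPKM, protein-coding genes), a pseudocount of 0.1, a replicate block, each library left out, limma-voom on recovered reads scaled to the library total or by trimmed mean of M-values, scaling without mitochondrial reads, calls at 0.01, subunits by structure, and members outside shifted chromosome regions. The members and lists were chosen with earlier results of these data known. Every member could be named; full values went to the 10 largest called rises and falls, the 3 highest genes of each subunit, the stalk, the S18 paralogs, misplaced symbols and filtered genes, and in other lists to the 4 smallest p-values.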

Additional observations from a re-analysis of the deposited data

How the results depend on the processing

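All 16 called members kept their direction in the 13 other fits, and MRPS10, MRPS26, MRPS27 and MRPS31 kept their call in all 13. The kept direction was partly fixed in advance. Because the groups of all 16 did not overlap, leaving out a library or changing the pseudocount could not reverse it. The other filters and the replicate block left the fold change as it was. Only quantile normalization, scaling without mitochondrial reads and voom could have reversed a direction. Of 528 refits of 41 single genes, 425 kept direction and side of the threshold, 86 lost the call, 10 gained one and 7 reversed.

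Quantile normalization gave 8 members that fell, 3 rises and 4 falls in the large subunit, and medians of −0.0490 (large) and 0.0415 (small). Without a filter 6 members rose and 3 fell, with 3 large subunit rises, 1 large fall and 3 small rises (11.5% of members called, beside 6.45% of all genes). A 5 FPKM filter, or testing protein-coding genes only, gave 8 rises and 4 falls in the large subunit. Voom scaled to the library total gave 10 members that fell, 5 in each subunit, and a large subunit median of −0.0347. At an adjusted p under 0.01, limma left 3 members that rose and 2 that fell, with 3 small subunit rises and 0 large subunit calls in either direction (8 and 6 at an unadjusted p under 0.05). Outside parts of chromosomes 5, 7, 8, 11 and 20 and chromosome 13, regions chosen from earlier results, 7 members rose, 3 of them large, with 1 large fall and a small subunit median of 0.0417. The cause of these changes was not tested.

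With 1 library left out, 3 to 5 members rose and 3 to 4 fell. The large subunit had 0 to 2 rises, 0 to 3 falls and medians from −0.026 to 0.012, and the small subunit 3 to 4 rises and 1 to 3 falls; the lone library is then assumed to vary like the others. MRPL11 reversed to −0.0415 under quantile normalization and without the second control library, −0.0155 without the second library labelled knockdown, −0.0186 with voom scaled to the total and −0.0047 without mitochondrial reads. With 1 library left out MRPL11 ranged from −0.0415 to 0.0475, MRPL53 from −0.401 to 0.0351 and MRPL54 from −0.229 to 0.0255.

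With the replicate number as a block, 10 members rose and 5 fell, and the call of MRPL14 was lost (adjusted p = 0.0620). Deviations of same-numbered libraries were not correlated (−0.00206 over 12777 genes), so no effect shared by same-numbered libraries was seen. A single correlation cannot exclude that the numbers mark paired cultures or preparations. With 2 libraries a group, depth did not allow members with few reads, such as MRPL53 (42 to 80 reads), to be compared closely.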
